A study of Mus musculus with 14 samples.

Results

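The RNA of 10 genes that set the pace of the G1 phase of the cell cycle was followed in starved mouse embryonic fibroblasts, cells cultured from the connective tissue of mouse embryos. The genes were the D cyclins Ccnd1, Ccnd2 and Ccnd3, their kinases Cdk4 and Cdk6, and the CDK inhibitors Cdkn1a, Cdkn1b, Cdkn2a, Cdkn2c and Cdkn2d. They were chosen by symbol from 40800 symbols in a table of read counts per transcript, and where a symbol had several transcript rows, the one with the highest sum over the 14 libraries stood for it. All 10 passed the filter on low counts, which 17696 genes passed in all. The cells were unstarved (control, 0 h), or had spent 3, 6 or 12 h in DMEM lacking amino acids, or 3, 6 or 12 h in DMEM lacking glucose, with 2 libraries in each of the 7 groups. Starved cells received 10 % dialyzed serum and were frozen in it, while control cells were grown and frozen in ordinary serum. Every comparison with the control holds that change of serum and medium as well, and the 2 starvations at one time share it. No genotype, strain or number of embryos is given for the cells, and the sources do not say whether a group's 2 libraries stem from different dishes. The p-values therefore measure the spread between these libraries, which may be technical.

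D cyclins are made when growth factors and nutrients are at hand, and they bind and switch on the kinases CDK4 and CDK6. The active kinases phosphorylate the retinoblastoma protein and its relatives (the pocket proteins), which releases E2F transcription factors and lets cells enter S phase. The inhibitors of the INK4 family (here from Cdkn2a, Cdkn2c and Cdkn2d) bind the kinases themselves. The CIP/KIP inhibitors p21 (Cdkn1a) and p27 (Cdkn1b) bind cyclin and kinase together and also hold back CDK2. Cdkn2a encodes a second, unrelated protein, ARF, from another first exon, and ARF protects p53. D cyclin and CIP/KIP proteins are also controlled by breakdown, which RNA does not show.

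The chosen transcripts took 35270751 to 55349673 reads per library. Levels are given as CPM, read counts relative to the library total after TMM scaling, and values after ± are SDs over 2 libraries. Comparisons used edgeR's quasi-likelihood test with p-values adjusted over all 17696 genes and a threshold of 0.05. Each SE was worked back from that test, as the absolute log2 fold change divided by the square root of the F statistic. Of 10 fibroblast markers, 8 reached 1 CPM in the control, and Thy1 and Lum did not. The summed level of the 10 markers was 8290 and 9010 CPM in the control libraries, 2430 and 2630 CPM after 12 h without amino acids, and 6270 and 6320 CPM after 12 h without glucose. Among these markers Vim, encoding vimentin, stood at 2250 CPM in the control and 99.3 CPM after 12 h without amino acids, while Fn1, encoding fibronectin, stood at 1510 CPM in the control and at 2810, 2940 and 1740 CPM after 3, 6 and 12 h. Markers of epithelial, erythroid and fat cells were all under 1 CPM in every group. Of the others, Cd68 and Csf1r (macrophage), Kdr (endothelial), Myod1 and Ttn (muscle), and Tubb3, Nes and Map2 (neural) reached 1 CPM in at least 1 group. Summed endothelial markers stood at 4.21 and 5.08 CPM in the control and at 12.6 to 23.6 CPM in the starved libraries. Summed neural markers stood at 286 and 289 CPM in the control and at 137 to 424 CPM in the starved libraries. The part of these shifts in the results was not tested. In such bulk RNA, fewer cells of a type and less RNA per cell cannot be told apart.

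Both starvations were marked by less cyclin D3 and Cdkn2d RNA and more Cdkn1a RNA at each of the 3 times. The 6 comparisons share the same 2 control libraries. Cyclin D1 RNA was lost in steps without amino acids but mostly late without glucose. After 3 h without amino acids, 4 of the 10 genes were called higher against the control and 4 lower, where 27.9% and 32.1% of all genes tested were called higher and lower. After 6 h, 3 were higher and 7 lower (all genes: 32.3% and 33.3%). After 12 h, 2 were higher and 7 lower (all genes: 34.9% and 32%). Without glucose, 4 were higher and 3 lower at 3 h (all genes: 20.3% and 23.1%). At 6 h, the counts were 4 higher and 3 lower (all genes: 23.3% and 24.2%), and at 12 h they were 4 higher and 5 lower (all genes: 30.4% and 28%). In each comparison the share of the 10 genes called stood above that of all genes, but calls were common throughout. The 10 genes were chosen with earlier results of these data known, and all lay well above the filter on low counts. Neither this excess nor the medians that follow are therefore evidence about them. The median absolute log2 change of the 10 genes was 0.86 after 12 h without amino acids and 1.09 after 12 h without glucose, beside 0.66 and 0.49 over all genes. Scaling by library totals in place of TMM lowered the share of calls that were higher from 46.5% to 34.2% at 3 h without amino acids. The same change lowered it from 46.8% to 25.7% at 3 h and from 49% to 33.1% at 6 h without glucose. Library totals put the median gene at -0.24 (log2) in the first of these comparisons, and at -0.21 and -0.14 in the other two.

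**Figure D1:**
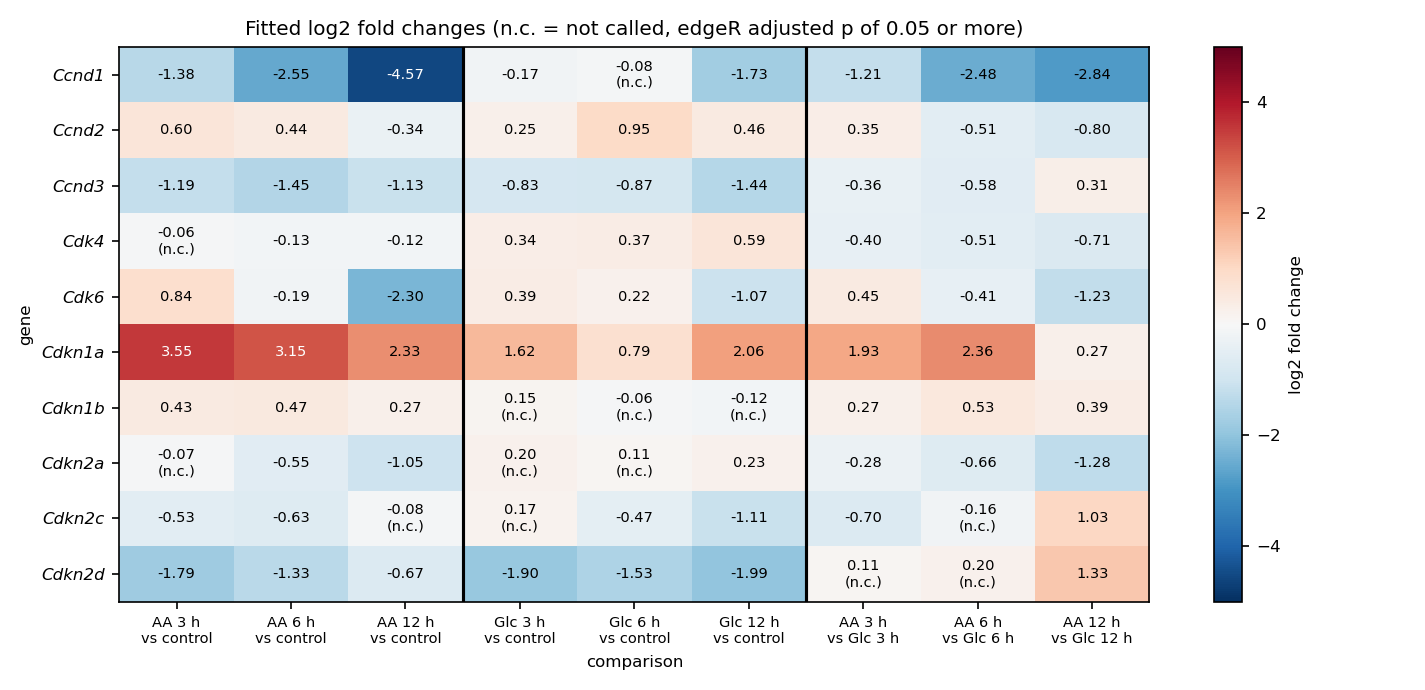
Fitted log2 fold changes of the 10 genes (rows) in the 6 comparisons of a starved group (AA, without amino acids; Glc, without glucose) with the control and the 3 comparisons between starvations at one time (columns); n.c. marks values that did not pass the test. Ccnd1 after 12 h without amino acids (-4.57) and Cdkn1a after 3 h without amino acids (3.55) are the deepest fall and the steepest rise.

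Among the D cyclins, Ccnd1, which encodes cyclin D1, the form most tied to mitogen signalling in fibroblasts, had 254 and 246 CPM in the control libraries. Without amino acids its level was 98.7 and 93.1 CPM at 3 h, 44.7 and 40.4 CPM at 6 h, and 10.3 and 10.8 CPM at 12 h, the last from 507 and 571 reads. No library of one time overlapped those of the next, and the group means fell in order with time. The change from the control was a log2 fold change of -1.38 (SE 0.058, adjusted p = 3.04e-18) at 3 h, -2.55 (SE 0.061, adjusted p = 4.05e-24) at 6 h and -4.57 (SE 0.070, adjusted p = 1.68e-28) at 12 h. The last was a 23.7-fold loss, the widest range of any of the 10 genes over the groups. Without glucose Ccnd1 stood at 223 and 220 CPM at 3 h, 232 and 242 CPM at 6 h, and 77 and 74.1 CPM at 12 h. Most of that fall lay between 6 and 12 h: the log2 fold change from the control was -0.17 (adjusted p = 0.0127) at 3 h, -0.08 (adjusted p = 0.284, not called) at 6 h and -1.73 (SE 0.059, adjusted p = 2.94e-20) at 12 h. The small fall at 3 h did not pass in a fit of only the groups compared (adjusted p = 0.163) or without control replicate 1 (adjusted p = 0.0635).

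Of the Ccnd1 transcript's 3740 bases, 29.4% lie opposite the gene LTO1 in the annotation. Whether the counting used strand is not given in the sources used here, so reads from that stretch cannot be told apart. LTO1 itself was at 61.3 ± 3.4 CPM in the control, 6.61 ± 0.35 CPM after 12 h without amino acids and 19.3 ± 0.20 CPM after 12 h without glucose, and its part in the Ccnd1 values was not tested. Parts of Cdk4 (31.2%, opposite Tspan31), Ccnd3 (18.2%, opposite Bysl), Cdkn1a (12.5%), Ccnd2 (5.88%) and Cdk6 (0.954%) are overlapped in the same way. Bysl stayed between 90.2 and 143 CPM and Tspan31 between 57.8 and 88.6 CPM over the 14 libraries.

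Ccnd2 was higher than in the control in 5 of the 6 starved groups on the row used. This gene encodes cyclin D2, a form known for its part in B cells and the gonads. It had 170 and 181 CPM in the control, and without amino acids 271 and 263 CPM at 3 h, 242 and 234 CPM at 6 h, and 140 and 138 CPM at 12 h. It therefore rose early (log2 fold change 0.60, SE 0.055, adjusted p = 1.35e-10, at 3 h) and ended below the control (-0.34, SE 0.056, adjusted p = 4.21e-06, at 12 h). Without glucose it had 219 and 199 CPM at 3 h, 339 and 338 CPM at 6 h, and 244 and 238 CPM at 12 h, above both control libraries each time. The rise was steepest at 6 h, at 1.93-fold (log2 fold change 0.95, SE 0.055, adjusted p = 2.51e-14). At 3 h it was 0.25 (adjusted p = 0.00041), and 0.087 (adjusted p = 0.211) with library totals. All these values rest on the 6330-base row of Ccnd2. Relative to it, the reads of a 983-base row changed by 0.51, 0.34 and 0.72 (log2) at 3, 6 and 12 h without glucose. Without amino acids they changed by -0.23, -0.47 and -0.46. On that row, not tested by itself, the rises without glucose would be larger and the values without amino acids lower. The rise at 6 h without amino acids, 0.44 on the row used, would not remain there.

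Ccnd3 RNA, for cyclin D3, fell in all 6 starved groups, with no starved library near the control's 123 and 120 CPM. Without amino acids it had 53.7 and 52.9 CPM at 3 h, 43.6 and 45.2 CPM at 6 h, and 57.2 and 54 CPM at 12 h. Without glucose it had 70.4 and 66.8 CPM at 3 h, 70.2 and 63.1 CPM at 6 h, and 44.7 and 45 CPM at 12 h. The low point came at 6 h in one starvation (log2 fold change -1.45, SE 0.064, adjusted p = 7.62e-18) and at 12 h in the other (-1.44, SE 0.064, adjusted p = 1.5e-17). The libraries of those 2 groups overlapped each other.

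**Figure D2:**
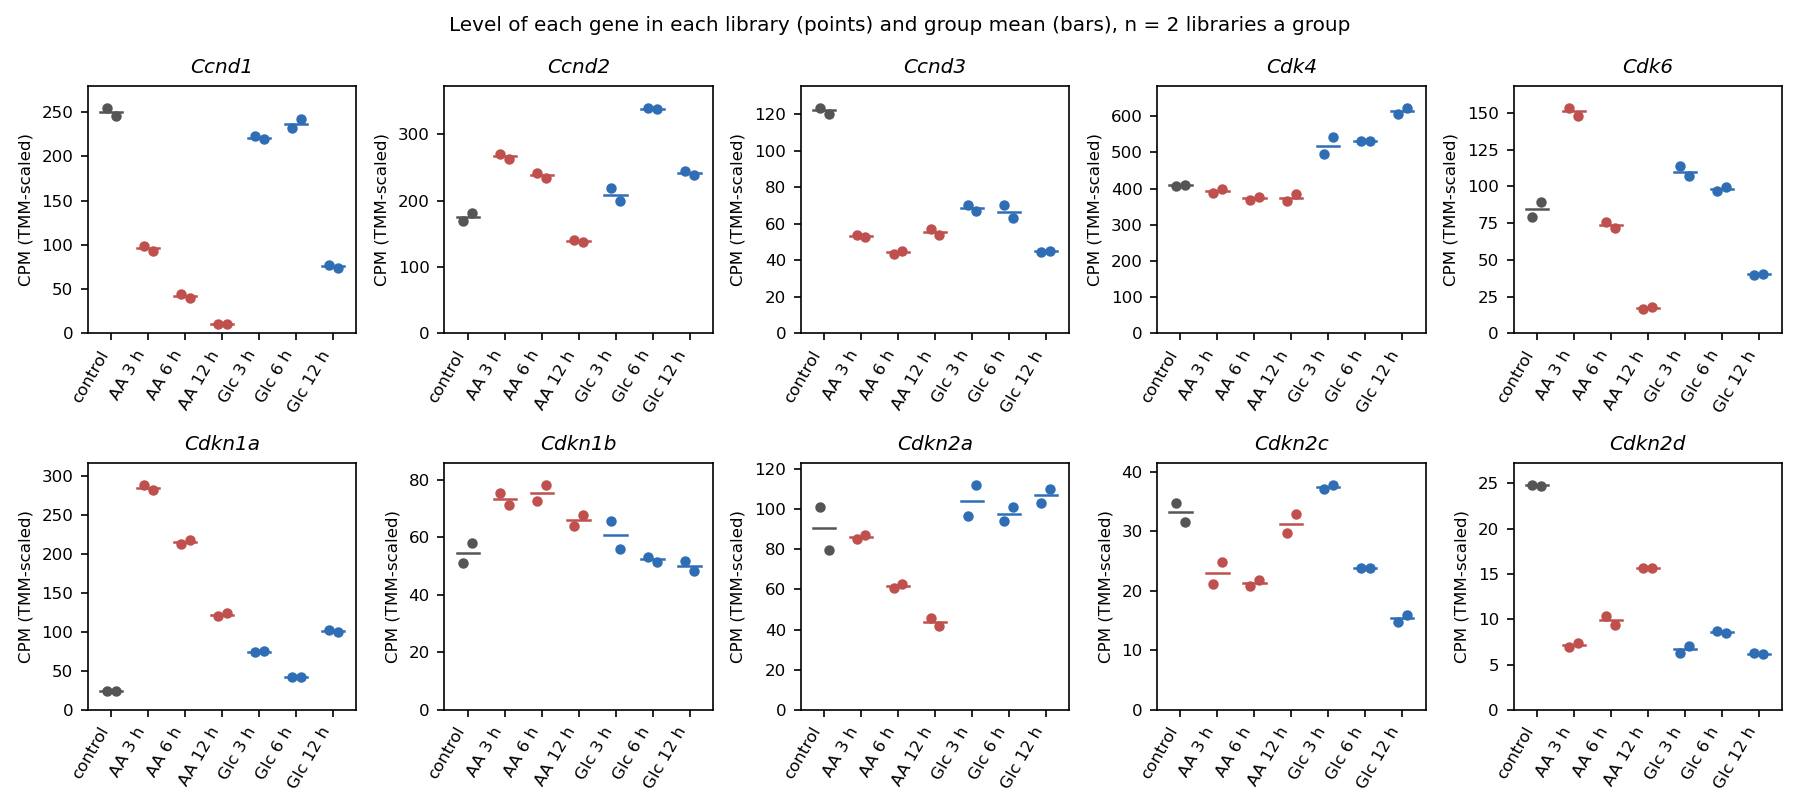
Level of each gene (CPM, TMM-scaled; each panel has its own scale from 0) in each of the 14 libraries (points) with the mean of each group of 2 (bars), for the control (grey), 3, 6 and 12 h without amino acids (red) and 3, 6 and 12 h without glucose (blue). Ccnd1 steps down to 10.5 CPM without amino acids, and Cdkn1a jumps from 24.2 to 284 CPM within 3 h.

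The kinases behaved unlike each other. Cdk4, whose protein is the main partner of D cyclins in most tissues, had 406 and 411 CPM in the control. Without glucose it rose to 495 and 541 CPM at 3 h, 530 and 530 CPM at 6 h, and 606 and 621 CPM at 12 h, all above the control. The log2 fold change was 0.34 (SE 0.053, adjusted p = 4.56e-06) at 3 h, 0.37 at 6 h and 0.59 (SE 0.053, adjusted p = 1.12e-10) at 12 h. Without amino acids it kept within 366 and 398 CPM, below both control libraries. That difference was small: -0.06 (adjusted p = 0.369) at 3 h, -0.13 (SE 0.053, adjusted p = 0.0298) at 6 h and -0.12 (SE 0.053, adjusted p = 0.04) at 12 h. The 6 h call did not pass with RLE factors (adjusted p = 0.0945), with DESeq2 (0.0661) or in a fit of only the groups compared (0.0535), and the 12 h value was 0.009 with library totals. The 12 h call did not pass with the stricter filter (adjusted p = 0.124) either, nor in most fits with 1 library left out.

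The Cdk4 promoter is shown because it repeats one short motif. RefSeq promoter windows on GRCm38.p6, 250 bases before an annotated start, were found for 8 of the 10 genes (12 windows), and not for Ccnd1 and Ccnd2. They were searched on both strands for 9 motifs, and each motif's share of 32851 windows of that length is given in brackets: the E-box CACGTG, read by MYC and related factors (6.02%), CRE TGACGTCA (1.55%), AP-1 TGANTCA (6.75%), E2F TTTNGCGC (1.13%), CARE TGATGNAA (3.45%), CCAAT (33.8%), the GC box GGGCGG (32.7%), FOXO GTAAACA (3.17%) and the p53 response element (0.134%). No matches in the 12 windows overlapped. Of the rarer motifs, FOXO was found once, in a Ccnd3 window, E2F once, in a Cdkn2a window, and CRE, AP-1 and CARE in none. The Cdk4 window, on the plus strand at chr10:127063285-127063534, has 4 copies of the E-box, in capitals, which begin 172, 118, 98 and 11 bases before the start.
Cdk4: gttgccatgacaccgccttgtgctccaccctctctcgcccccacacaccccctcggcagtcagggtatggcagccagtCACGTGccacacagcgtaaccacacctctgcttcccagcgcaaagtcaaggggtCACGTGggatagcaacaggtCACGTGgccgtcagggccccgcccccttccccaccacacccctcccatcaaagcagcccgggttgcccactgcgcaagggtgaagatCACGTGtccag
Only 7 of the 32851 windows (0.0213%) have 4 or more. Of the other windows searched, that of Cdk6 has 1 copy. The E-box was singled out from the 9 motifs after the search, and the matches describe letters and not binding.

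Cdk6, the second kinase, was at 79.3 and 89.6 CPM in the control. Without amino acids it had 153 and 148 CPM at 3 h, 75.7 and 71.9 CPM at 6 h, and 16.7 and 17.7 CPM at 12 h. It first rose (log2 fold change 0.84, SE 0.062, adjusted p = 1.71e-12, at 3 h) and then fell below the control (-2.30, SE 0.069, adjusted p = 6.78e-22, at 12 h), an 8.79-fold range between the group means. Without glucose it was also first above and at 12 h below the control, with 114 and 107 CPM at 3 h, 97 and 99.7 CPM at 6 h, and 39.7 and 40.7 CPM at 12 h (log2 fold changes 0.39, 0.22 and -1.07, adjusted p = 9.58e-06, 0.00477 and 1.93e-14). All these values rest on the 11525-base row of Cdk6. Relative to it, the reads of a 2470-base row changed by 0.73 (log2) after 12 h without glucose and by -0.51 after 12 h without amino acids. On that row, not tested by itself, the fall without glucose would be smaller and that without amino acids deeper. The 6 h calls are thin. Without control replicate 2 the change at 6 h of amino acid starvation was -0.10 (adjusted p = 0.212, beside -0.19 and 0.00826 with all libraries), and without control replicate 1 that at 6 h of glucose starvation was 0.13 (adjusted p = 0.133).

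Of the CIP/KIP inhibitors, Cdkn1a rose in all 6 starved groups. This gene encodes p21, the textbook p53 target that also answers to other stress signals. Its 24.6 and 23.9 CPM in the control became 288 and 281 CPM after 3 h without amino acids, an 11.7-fold rise (log2 fold change 3.55, SE 0.060, adjusted p = 1.29e-27). The level then came down, to 212 and 217 CPM at 6 h and 120 and 124 CPM at 12 h, still 5.03-fold above the control. Without glucose it had 74.3 and 75 CPM at 3 h, 42.2 and 41.6 CPM at 6 h, and 102 and 99.9 CPM at 12 h. That course was not a steady one: the log2 fold change from the control was 1.62 at 3 h, 0.79 (SE 0.060, adjusted p = 5.98e-12) at 6 h and 2.06 (SE 0.058, adjusted p = 3.25e-22) at 12 h. None of the 7 groups overlapped another in Cdkn1a.

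A known kind of p53 site lies in 1 of the 2 windows of Cdkn1a. The window before the upstream start, on the plus strand of GRCm38.p6 at chr17:29090729-29090978, holds a p53 response element, searched by name with at most 2 mismatches over its 20 letters. The match, in capitals, begins 51 bases before the start.
Cdkn1a: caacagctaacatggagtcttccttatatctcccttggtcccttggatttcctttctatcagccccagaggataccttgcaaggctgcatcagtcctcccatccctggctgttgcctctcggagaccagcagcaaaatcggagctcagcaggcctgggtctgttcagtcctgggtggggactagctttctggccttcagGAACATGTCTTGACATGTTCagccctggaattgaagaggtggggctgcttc
Of all 32851 windows, 44 (0.134%) hold such a match, and no other window of the 10 genes does. The window before the downstream start holds 2 GC boxes. Near-identical counts for 2 of the transcripts (99.5% to 99.9% of each other by group) do not show which start was in use.

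Cdkn1b, encoding p27, a FOXO target that gathers in resting cells, moved little on its 4552-base row. It had 51 and 58 CPM in the control and, without amino acids, 75.4 and 71.1 CPM at 3 h, 72.7 and 78.2 CPM at 6 h, and 63.9 and 67.9 CPM at 12 h. All 6 of those libraries lay above the control (log2 fold changes 0.43, 0.47 and 0.27, adjusted p = 1.52e-05, 2.68e-06 and 0.00206). A 2393-base row held 69.4% as many reads in the control and 84% after 12 h without amino acids. On that row, not tested by itself, the rise at 12 h would be larger. The 12 h call did not pass without control replicate 1 (0.18, adjusted p = 0.0681). Without glucose its group means were 60.7 ± 6.9, 52.4 ± 1.3 and 50.1 ± 2.4 CPM, and none of the 3 comparisons passed (adjusted p = 0.102, 0.569 and 0.173). The value at 3 h depended on the settings: it turned from 0.15 to -0.013 with library totals, but passed with RLE factors (0.19, adjusted p = 0.0475), with no filter (0.0325), without control replicate 2 (0.0245) and without replicate 2 of its own group (0.0109).

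In the INK4 group, Cdkn2d, which encodes p19-INK4d, fell in all 6 starved groups. Its control libraries had 24.8 and 24.7 CPM. Without amino acids it had 6.97 and 7.38 CPM at 3 h, 10.4 and 9.34 CPM at 6 h, and 15.6 CPM in both libraries at 12 h. The fall was thus deepest at the first time (log2 fold change -1.79, SE 0.11, adjusted p = 1.39e-14) and shrank to -0.67 (SE 0.099, adjusted p = 8.56e-07). Without glucose it kept low, with 6.32 and 6.99 CPM at 3 h, 8.69 and 8.49 CPM at 6 h, and 6.24 and 6.19 CPM at 12 h (log2 fold changes -1.90, -1.53 and -1.99, adjusted p = 1.84e-14, 1.08e-12 and 1.48e-15). These levels rest on 210 to 343 reads per library. The Cdkn2d promoter window, on the minus strand of GRCm38.p6 at chr9:21291210-21291459, is shown because the gene fell everywhere, and its 3 GC boxes are in capitals.
Cdkn2d: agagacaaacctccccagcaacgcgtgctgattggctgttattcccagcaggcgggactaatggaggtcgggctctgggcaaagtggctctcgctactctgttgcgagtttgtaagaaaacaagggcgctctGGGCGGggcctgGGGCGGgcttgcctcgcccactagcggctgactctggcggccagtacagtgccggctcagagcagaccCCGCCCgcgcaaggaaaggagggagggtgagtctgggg
Cdkn2c has 3 GC boxes as well, so that the count does not set Cdkn2d apart.

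Cdkn2c, encoding p18-INK4c, had 34.8 and 31.6 CPM in the control. Without amino acids it dipped and came back, with 21.2 and 24.8 CPM at 3 h, 20.9 and 21.9 CPM at 6 h, and 29.8 and 32.9 CPM at 12 h. The change was -0.53 (adjusted p = 5.46e-06) at 3 h, -0.63 (adjusted p = 2.08e-07) at 6 h and -0.08 (adjusted p = 0.4, not called) at 12 h, the last at 0.05 with library totals. Without glucose it went the other way with time, from 37.1 and 37.8 CPM at 3 h (0.17, adjusted p = 0.102) through 23.9 CPM in both libraries at 6 h to 14.8 and 16 CPM at 12 h (-1.11, SE 0.089, adjusted p = 8.5e-12). The 3 h value passed with summed rows (0.267, adjusted p = 0.00934) and, narrowly, with the stricter filter (0.201, adjusted p = 0.0499).

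Cdkn2a, the locus of p16-INK4a and ARF, was the inhibitor whose control libraries differed most, at 101 and 79.7 CPM. Without amino acids it had 85.3 and 87 CPM at 3 h, 60.9 and 62.6 CPM at 6 h, and 45.7 and 41.9 CPM at 12 h. The fall passed the test at 6 h (-0.55, SE 0.088, adjusted p = 1.12e-05) and at 12 h (-1.05, SE 0.090, adjusted p = 1.09e-09). Without glucose it had 96.8 and 112 CPM at 3 h, 94.1 and 101 CPM at 6 h, and 103 and 110 CPM at 12 h, of which only the last passed (0.23, SE 0.087, adjusted p = 0.0256). That call went with the second control library: without it the change was 0.07 (adjusted p = 0.482). The value at 3 h (0.20, adjusted p = 0.0673) passed with RLE factors (0.0296), DESeq2 (0.027), no filter (0.00198) and the stricter filter (0.0316). Without the first control library the changes at 3 and 6 h of glucose starvation passed (0.39, adjusted p = 0.000297, and 0.29, adjusted p = 0.00384). The table's second Cdkn2a transcript begins at the other first exon and shares the rest. It held 75.8% to 78.4% as many reads as the first by group. The first row, with the upstream start that ARF uses, was ahead in every library. Its lead was 517 to 1243 reads, or 21.4% to 26.1% of its own. That lead is a net difference between the 2 rows, and levels of the p16 and ARF forms were not measured separately.

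Compared per kilobase of transcript, which allows levels of different genes to be set side by side, the make-up of each group of genes changed. The shares rest on each gene's chosen row. A 983-base row of Ccnd2 held 14.5% as many reads as the chosen row in the control and 23.8% after 12 h without glucose. The Ccnd2 shares therefore depend on the row, and reads from genes opposite Ccnd1, Ccnd3 and Cdk4 may add to theirs. In the control, Ccnd1 and Ccnd3 were the main D cyclins, with 42.8% ± 0.52 and 39.4% ± 0.41 of the summed D cyclin level and Ccnd2 with 17.8% ± 0.93. Without amino acids the Ccnd1 share was 27.1%, 15.9% and 5.34% ± 0.30 at 3, 6 and 12 h, while Ccnd2 led at 6 h with 52.6% ± 0.48 and Ccnd3 at 12 h with 53.2% ± 0.90. Without glucose the Ccnd1 share was 46.6% and 42.1% at 3 and 6 h and 25% ± 0.34 at 12 h, when Ccnd2 led with 47% ± 0.16. The summed D cyclin level was 156 ± 1.3 CPM per kilobase in the control, 52.9 ± 1.3 after 12 h without amino acids and 80.9 ± 1.1 after 12 h without glucose. At 6 h without glucose it was 151 ± 0.57, close to the control with Ccnd3 lower and Ccnd2 higher. Cdk4 made up 93.6% to 99.2% of the summed level of both kinases in each group.

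The inhibitors' make-up turned on Cdkn1a. It held 7.42% ± 0.66 of their summed level per kilobase in the control, where Cdkn2a held 63.9% ± 3.9. After 3 h without amino acids the Cdkn1a share was 51.8% ± 0.84, and after 12 h still 39.8% ± 0.98 beside 33.3% ± 2.0 for Cdkn2a. Without glucose Cdkn2a kept the lead at all times, with 62.5%, 69.4% and 62.7%, and Cdkn1a reached 25.6% ± 1.1 at 12 h. Cdkn1b stayed within 5.8% and 9.85% throughout. The Cdkn2a row used has the ARF start and also holds reads that p16 and ARF share. Its shares, and the summed inhibitor level, are therefore not those of p16 alone.

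**Figure D3:**
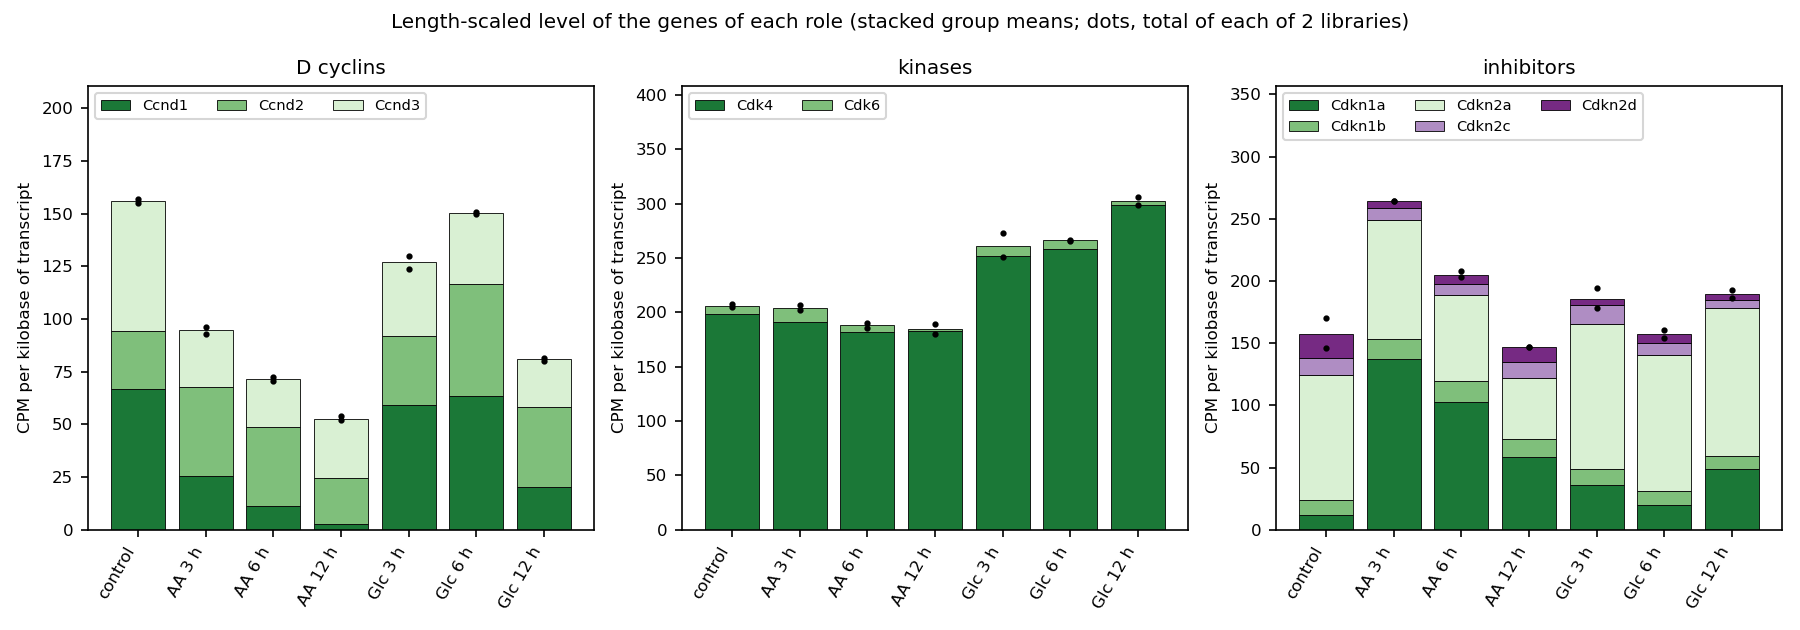
Level per kilobase of transcript (CPM per kilobase, group means stacked by gene) of the D cyclins, the 2 kinases and the 5 inhibitors in the 7 groups (AA, without amino acids; Glc, without glucose), with dots for the total of each of the 2 libraries. The D cyclin total runs from 156 in the control to 52.9 after 12 h without amino acids, and the Ccnd1 part nearly vanishes there.

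Setting the starvations against each other asks whether RNA levels depend on which nutrient is missing, with the handling shared by both sides. At 3 h, 4 of the 10 genes were higher without amino acids than without glucose and 5 lower (all genes: 26.7% and 27.7%). At 6 h, 2 were higher and 6 lower (all genes: 31.5% and 32.3%). At 12 h, 5 were higher and 5 lower (all genes: 32.5% and 31.6%), and the share of all calls that were higher moved from 50.8% to 65.5% with library totals. Ccnd1 and Cdk4 were lower without amino acids at each time. The Ccnd1 difference was -1.21 (SE 0.058), -2.48 (SE 0.061) and -2.84 (SE 0.068, adjusted p = 6.41e-24) on the log2 scale, and that of Cdk4 -0.40, -0.51 and -0.71 (SE 0.053, adjusted p = 1.23e-12). Cdkn1a and Cdkn1b were higher without amino acids at each time. For Cdkn1a the difference was 1.93 and 2.36 at 3 and 6 h (adjusted p = 1.55e-21 and 9.64e-24) but 0.27 (SE 0.053, adjusted p = 6.28e-05) at 12 h, and for Cdkn1b it was 0.27, 0.53 and 0.39.

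Of the other genes, Ccnd2, Cdk6, Cdkn2c and Ccnd3 changed sides with time, while Cdkn2d and Cdkn2a did not. Ccnd2 and Cdk6 were higher without amino acids at 3 h (0.35 and 0.45) and lower at 6 h (-0.51 and -0.41) and 12 h (-0.80 and -1.23). Cdkn2c was lower without amino acids at 3 h (-0.70, adjusted p = 8.19e-08) and higher at 12 h (1.03, SE 0.089, adjusted p = 2.75e-11). At 6 h its difference did not pass (-0.16, adjusted p = 0.114), but it did with summed rows (-0.285, adjusted p = 0.00419). Ccnd3 likewise was lower at 3 and 6 h (-0.36 and -0.58) and higher at 12 h (0.31, adjusted p = 0.000112). Cdkn2d did not pass at 3 or 6 h (adjusted p = 0.467 and 0.118) and was higher without amino acids at 12 h (1.33, SE 0.11, adjusted p = 1.02e-11). Cdkn2a was lower at each time, at -0.28, -0.66 and -1.28, of which the first did not pass without glucose-starved replicate 2 at 3 h (adjusted p = 0.172).

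From one time to the next within a starvation, the genes kept moving. Between 3 and 6 h without amino acids, 1 was called higher (Cdkn2d, 0.46) and 6 lower (all genes: 24.7% and 25.4%), among which Ccnd1 (-1.17) and Cdk6 (-1.03) fell most. Between 6 and 12 h, 3 were higher (Ccnd3, Cdkn2c and Cdkn2d, 0.32 to 0.66) and 6 lower (all genes: 27.8% and 27.1%), with Ccnd1 at -2.01 (SE 0.069, adjusted p = 6.5e-20) and Cdk6 at -2.10 (SE 0.069, adjusted p = 2.6e-20). The share of all calls that were higher moved with library totals from 49.3% to 60.6% in the first step and from 50.6% to 69.3% in the second. Between 3 and 6 h without glucose, 2 were higher (Ccnd2, 0.69, and Cdkn2d, 0.37) and 4 lower (all genes: 17.8% and 15.5%), among them Cdkn1a (-0.83) and Cdkn2c (-0.65). Leaving out 3 h replicate 1, 6 h replicate 1 or 6 h replicate 2 of these libraries cut the 6 calls to 3. Between 6 and 12 h, 2 were higher (Cdkn1a, 1.27, SE 0.056, and Cdk4, 0.21) and 6 lower (all genes: 25.6% and 21.9%), with Ccnd1 at -1.65 (SE 0.059) and Cdk6 at -1.29 (SE 0.065). In both starvations Ccnd1 and Cdk6 had their deepest step between 6 and 12 h, also the longest interval.

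Ordered by level, the 7 groups gave 60 neighbouring pairs over the 10 genes, of which 18 overlapped in their libraries. None of these was in Ccnd1, Cdk6 or Cdkn1a, while Cdkn1b had 5 and Cdkn2a 4. The same count was not made over all genes tested. Whether 18 of 60 is few or many therefore cannot be said, and the counts only describe these libraries.

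The genes whose group means followed that of Ccnd1 most closely, by Pearson's r over 7 groups on the scale of log2(CPM + 0.5) among 9247 genes, were Ckap4 (0.9948), Hspg2 (0.9944), Ly6e (0.993), Dbi (0.9923) and Col1a1 (0.9913). The last, encoding a collagen I chain, ran from 2350 CPM in the control to 312 CPM after 12 h without amino acids. For Cdkn1a they were Plcd4 (0.9883), Kbtbd2 (0.9871), Sqstm1 (0.9849), Fam13b (0.983) and Zbtb10 (0.9794). Sqstm1, encoding the autophagy receptor p62, went from 247 CPM in the control to 1370 CPM after 3 h without amino acids and 452 CPM after 6 h without glucose. These are rankings over 7 shared groups of libraries and carry no test.

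The pathway around the 10 genes was read from 5 further lists, all of whose members were tested. Downstream, the 13 pocket protein and E2F genes diverged between starvations. After 12 h without amino acids 11 were higher and 0 lower (2 did not pass: E2f4, at -0.04, and E2f5, at 0.10), with a median log2 change of 0.55, where 34.9% and 32% of all genes were called higher and lower. After 12 h without glucose 4 were higher and 8 lower (all genes: 30.4% and 28%), with a median of -0.26. Compared directly at 12 h, 12 were higher without amino acids and 1 lower (Rbl2, -0.31), beside the 32.5% and 31.6% given above for all genes. E2f1, an activator of S phase genes, rose in both, from 40.6 ± 1.4 CPM to 126 ± 4.3 CPM without amino acids and to 73.7 ± 4.1 CPM without glucose. Rb1, for the retinoblastoma protein, went from 14.9 ± 2.1 to 57.9 ± 1.1 CPM without amino acids (log2 fold change 1.96, SE 0.087, adjusted p = 6.09e-18), and its relative Rbl1 from 59.1 ± 3.8 to 180 ± 14 CPM. Without glucose E2f3 (-0.64) and E2f8 (-0.73) were lower. At 6 h the list stood at 11 higher and 1 lower without amino acids (all genes: 32.3% and 33.3%) and 2 higher and 8 lower without glucose (all genes: 23.3% and 24.2%). With library totals the counts without amino acids were 11 and 0 at 12 h and 11 and 1 at 6 h, and those without glucose 3 and 8 at 12 h and 0 and 9 at 6 h.

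**Figure D4:**
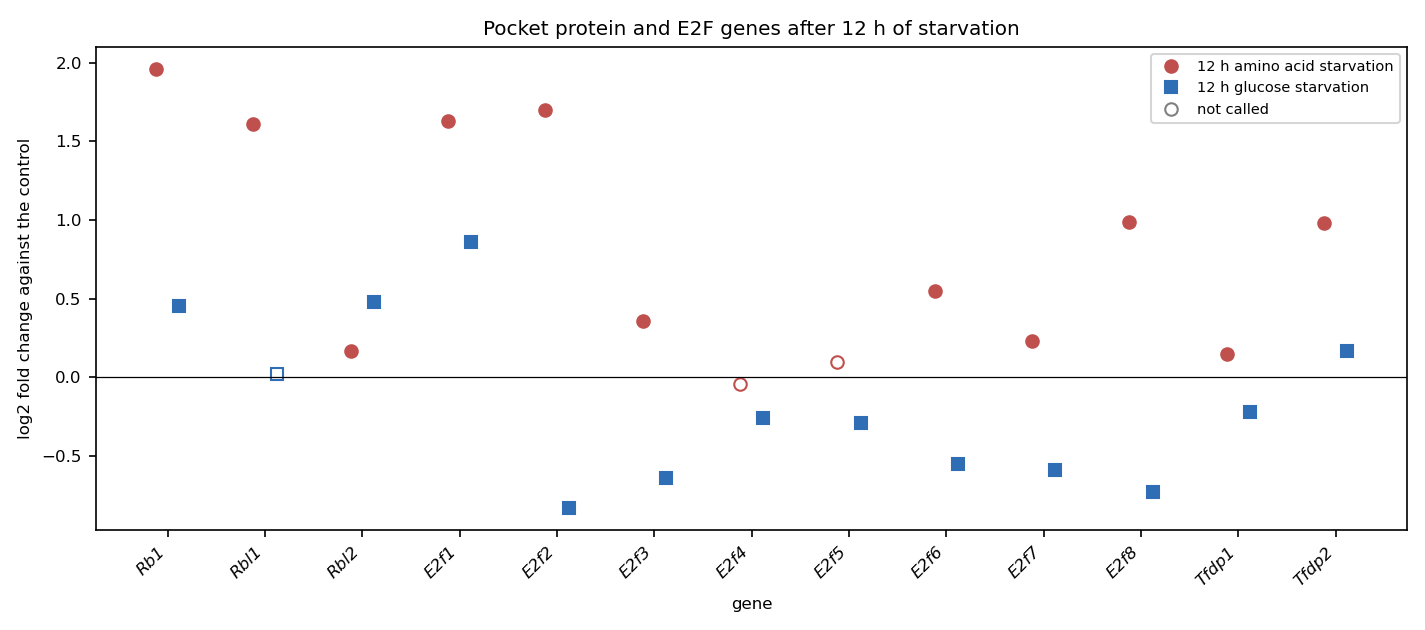
Log2 fold change against the control of the 13 pocket protein and E2F genes after 12 h without amino acids (red circles) and without glucose (blue squares), with open symbols for values that did not pass the test. The red circles lie above the blue squares for every gene except Rbl2.

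Of the 8 genes of the next step, cyclins E and A with CDK2 and its activators, 4 were higher and 2 lower after 12 h without amino acids (all genes: 34.9% and 32%), and 1 was higher and 5 lower without glucose (all genes: 30.4% and 28%). With library totals these counts were 5 and 2, and 1 and 5. Ccna2, for cyclin A2 of S phase, fell from 251 ± 12 to 104 ± 5.5 CPM without glucose (log2 fold change -1.27, SE 0.057, adjusted p = 2.01e-17), and Cdk2 from 82.3 ± 0.97 to 56.4 ± 1.4 CPM. Ccne1 fell in both (-0.94 and -1.03), whereas its relative Ccne2 rose without amino acids, from 44 ± 7.4 to 84.4 ± 5.9 CPM. Cdk7, of the CDK-activating kinase, fell without amino acids (-0.55).

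Among 14 genes for the breakdown of D cyclin and CIP/KIP proteins, 7 were higher and 5 lower after 12 h without amino acids (all genes: 34.9% and 32%), and 5 and 6 without glucose (all genes: 30.4% and 28%). The split depended on the scaling, at 8 and 3, and 3 and 7, with library totals. Dtl, which brings p21 to a ubiquitin ligase during replication, rose in both, from 70.9 ± 3.5 CPM to 215 ± 6.4 and 125 ± 0.74 CPM. Ddb1, of that same ligase, fell without amino acids from 1190 ± 55 to 428 ± 18 CPM (-1.48, SE 0.054, adjusted p = 5.75e-20). Gsk3b, a kinase that marks cyclin D1 for export and breakdown, rose there (0.88). Without glucose Cdc20, of the mitotic ligase, fell from 139 ± 4.5 to 49.1 ± 1.6 CPM and Skp2, which targets p27, from 98.7 ± 10 to 66.3 ± 1.8 CPM.

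Upstream, 16 genes for transcription factors and regulators that act on D cyclin or inhibitor genes were for the most part higher at 3 h: 14 higher and 1 lower without amino acids (all genes: 27.9% and 32.1%), and 10 and 2 without glucose (all genes: 20.3% and 23.1%). At 12 h, 8 were higher and 4 lower without amino acids (all genes: 34.9% and 32%), and 8 and 5 without glucose (all genes: 30.4% and 28%). With library totals the counts were 13 and 1, and 8 and 4, at 3 h, and 10 and 3, and 8 and 6, at 12 h. Ddit3 (CHOP), a stress factor, rose from 14.2 ± 2.2 CPM to 102 ± 2.8 without amino acids and 326 ± 12 without glucose. Its upstream factor Atf4 rose from 309 ± 7.3 CPM to 870 ± 26 and 928 ± 27 CPM. Jun, of AP-1, rose after 12 h without amino acids (1.57, SE 0.060) and without glucose (0.38, adjusted p = 3.7e-06). The 5 genes lower without glucose included Fos (-2.78) and Fosl1 (-1.06), also of AP-1. Smad3 was lower there (-1.51) and without amino acids (-2.10). Klf4, which can act on Cdkn1a, rose after 12 h without glucose from 9.8 ± 0.14 to 56.7 ± 2.1 CPM (2.53) and also without amino acids (1.21, adjusted p = 1.31e-14).

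Of the 3 other CDK inhibitors listed, Cdkn2b, for p15-INK4b and next to Cdkn2a in the genome, fell in both starvations, from 17.4 ± 0.80 CPM to 5.1 ± 0.88 without amino acids (-1.77, SE 0.13, adjusted p = 1.06e-12) and 13.6 ± 0.54 without glucose (-0.36, adjusted p = 0.0139). Cdkn3, a phosphatase of CDKs made in dividing cells, rose without amino acids (0.46, adjusted p = 0.00114) and fell without glucose from 12.6 ± 0.25 to 2.95 ± 0.11 CPM (-2.09, SE 0.14, adjusted p = 1.6e-13).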

How the data were processed

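RNA-seq libraries of the fibroblasts (14, as 7 pairs) were assigned to groups by their labels. The authors deposited raw counts, 1 row per transcript, with each transcript's length, and no normalization shows in the values. Per the submitters' processing notes, GRCm39, STAR and bedtools were used. Versions, annotation, counting rule and strand are not given in the sources used here. Of 67457 rows, 58 named no gene and held 0% of reads. Each symbol was represented by its row with the most reads. edgeR 4.0.16 (R 4.3.3) was run with filterByExpr, TMM and a robust quasi-likelihood fit of 7 group means (7 residual degrees of freedom), as 13 two-sided comparisons with Benjamini-Hochberg adjustment over 17696 genes. The fit was tested on simulated data. CPM are TMM-scaled counts.

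The 10 genes and the gene lists were chosen with earlier results of these data known. Besides the 10 genes, the text names up to 3 called genes per list with the smallest p in each 12 h comparison with the control, and the 5 genes most like Ccnd1 and Cdkn1a (mean log2 CPM of at least 3). Other genes are named only where they overlap a member, mark a cell type or stand as the exception to a count, and those exceptions were picked after their values were seen. Alternatives were RLE factors, library totals, DESeq2 1.42.0, no filter (1 read) or a stricter one (1 CPM in at least 4 libraries), a fit of only the groups compared, summed rows, the replicate block and leaving out each library. Overlaps between genes come from a GRCm38 annotation, and sequences and their coordinates from RefSeq on GRCm38.p6.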

Additional observations from a re-analysis of the deposited data

Results flagged for a closer look

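Each result here is a difference between the change after amino acid starvation and the change after glucose starvation at one time (log2, amino acids minus glucose) that passed edgeR's test of that difference. At 3 h these were Ccnd1 (-1.21), Ccnd2 (0.35), Ccnd3 (-0.36), Cdk4 (-0.40), Cdk6 (0.45), Cdkn1a (1.93), Cdkn1b (0.27), Cdkn2a (-0.28) and Cdkn2c (-0.70). At 6 h they were Ccnd1 (-2.48), Ccnd2 (-0.51), Ccnd3 (-0.58), Cdk4 (-0.51), Cdk6 (-0.41), Cdkn1a (2.36), Cdkn1b (0.53) and Cdkn2a (-0.66). At 12 h all 10 genes differed: Ccnd1 (-2.84), Ccnd2 (-0.80), Ccnd3 (0.31), Cdk4 (-0.71), Cdk6 (-1.23), Cdkn1a (0.27), Cdkn1b (0.39), Cdkn2a (-1.28), Cdkn2c (1.03) and Cdkn2d (1.33).

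In 5 of these the gene was called in opposite directions against the control. Cdk4 stood at -0.13 without amino acids and 0.37 without glucose at 6 h, and at -0.12 and 0.59 at 12 h. Cdk6 stood at -0.19 and 0.22 at 6 h, Ccnd2 at -0.34 and 0.46 at 12 h, and Cdkn2a at -1.05 and 0.23 at 12 h. Of these, the opposite calls of Ccnd2 at 12 h passed on both sides under every alternative run. Those of Cdk4, Cdk6 and Cdkn2a each lost 1 or both sides under some. The Cdk4 call at 12 h without amino acids was lost in most fits with 1 library left out.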

How the results depend on the processing

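Of 2860 alternative values for the 10 genes in 13 comparisons, 2749 kept direction and side of the threshold, 64 lost a call, 25 gained one and 22 changed sign. Many of these values come from leaving out a library of neither group compared, which can hardly move a fold change. The 2749 is therefore no measure of how stable the calls are. The counts of genes called stayed within 1.5 times in 12 comparisons, and that from 3 to 6 h without glucose was 6 and ranged from 3 to 6 with 1 library left out. The replicate numbers did not pair the libraries (correlation of replicate differences -0.035 to 0.054 over 21 pairs of groups). With the replicate block, Cdkn2a after 12 h without glucose lost its call (0.234, adjusted p = 0.0547) and no other call of the 10 genes changed, with 8, 10 and 9 called at 3, 6 and 12 h without amino acids and 7, 7 and 8 without glucose. With library totals, signs turned for Cdk4 (0.009) and Cdkn2c (0.05) at 12 h and Cdk4 from 3 to 6 h (0.024) without amino acids, Cdkn1b from 6 to 12 h without amino acids (0.015), and Cdkn1b at 3 h (-0.013) and Cdkn2a at 6 h (-0.024) without glucose. Cdk4 from 6 to 12 h without amino acids (0.01) was -0.044 with RLE factors, -0.02 with no filter, -0.01 with the stricter filter, -0.023 with summed rows, -4.4e-05 in only the groups compared and -0.044 with DESeq2. With 1 library left out, values that changed sign ranged as follows without amino acids: Cdkn2a at 3 h -0.237 to 0.111, Cdkn1b -0.009 to 0.097 and Cdkn2c -0.212 to 0.014 from 3 to 6 h, and Cdk4 -0.044 to 0.022 from 6 to 12 h. Without glucose they were Cdkn1b -0.148 to 0.039 and Cdkn2a -0.056 to 0.293 at 6 h, and Ccnd3 -0.114 to 0.035, Cdk4 -0.032 to 0.099 and Cdkn2a -0.196 to 0.014 from 3 to 6 h. The cause of these changes was not tested. With 2 libraries a group, leaving one out assumes that the lone library varies like the others. The lowest counts, 210 to 343 reads for Cdkn2d without glucose, had SEs of 0.11 on the log2 scale.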

Other observations

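The table's shorter rows of Ccnd2 and Cdk6 did not keep step with the rows used for these genes, so the size of their changes depends on the row. The 983-base row of Ccnd2 held 14.5% ± 1.6 (SD, n = 2) as many reads as the 6330-base row in the control, 20.6% ± 0.33, 18.3% ± 0.62 and 23.8% ± 0.66 after 3, 6 and 12 h without glucose, and 12.3% ± 0.75, 10.4% ± 0.24 and 10.6% ± 1.2 without amino acids. The 2470-base row of Cdk6 held 17.3% ± 0.98 as many as the 11525-base row in the control, 25% ± 0.36, 21.7% ± 2.0 and 28.7% ± 2.3 without glucose, and 17.6% ± 0.87, 15.7% ± 0.62 and 12.1% ± 0.73 without amino acids. On the log2 scale the share rose after 12 h without glucose by 0.72 for Ccnd2 and 0.73 for Cdk6. Over 1417 short rows of like proportions (under 40% of the chosen length, 5% to 50% of its reads and at least 1400 reads), 10% to 90% of the changes lay from -0.22 to 0.29, and 1.91% and 1.69% of rows had larger rises. After 12 h without amino acids the changes were -0.46 and -0.51, with 5.01% and 3.88% of rows lower. These rows and limits were chosen after the values were seen, and no test was made.

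Other short rows kept closer to their genes. The 714-base row of Cdk4 held 57.7% to 61.4% as many reads as the 2053-base row by group, and the 922-base row of Cdkn1a held 49.6% to 51.3%. The 2393-base row of Cdkn1b held 69.4% ± 3.6 as many reads as its 4552-base row in the control and 84% ± 1.0 after 12 h without amino acids.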
